A study of Rattus norvegicus with 12 samples.

Results

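Kinesins and cytoplasmic dynein are the motor proteins that carry cargo along microtubules, and their genes are followed here in 3 parts of the nervous system (cerebellum, spinal cord and sciatic nerve) in rats given acrylamide or saline. The members were all probe sets with a single platform gene symbol beginning with Kif or Klc and a digit, or with Dync, Dynl or Dctn, together with Dnal1. This gave 86 probe sets of 53 genes, out of 31099 probe sets and 14217 genes with a single symbol on the array. Each gene was represented by its probe set with the highest mean log2(signal + 16), and 20 of the 53 genes had more than 1 probe set.

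In an axon the microtubules point their plus ends away from the cell body, so that kinesins move most cargo outward and cytoplasmic dynein moves it back. A kinesin-1 motor joins heavy chains (Kif5a, Kif5b or Kif5c) to light chains (Klc genes) that bind cargo, and Kif5a and Kif5c are known as the neuronal forms while Kif5b is made in most cells. Cytoplasmic dynein-1 is built on the heavy chain Dync1h1 with intermediate (Dync1i), light intermediate (Dync1li) and light chains (Dynll, Dynlrb, Dynlt), and works with dynactin (Dctn genes). The family also holds the motors of mitosis and of cilia, and Dnal1, a light chain of the dynein arms that beat cilia and flagella. Acrylamide is a small electrophile that binds cysteine thiols and is known to damage the ends of long axons.

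The rats were male Wistar pups, 25 days old at the start in the sample labels and 3 weeks old in the series text. They received acrylamide at 30 mg/kg per day by oral gavage, or saline, which a treatment label calls the solvent. The series text gives 21 days of treatment, whereas the sample labels place collection 21 days after it, and how long the rats lived past their final dose is not settled. The 6 groups were acrylamide cerebellum, acrylamide spinal cord, acrylamide sciatic nerve, saline cerebellum, saline spinal cord and saline sciatic nerve. Each group had 2 arrays, each a pool of tissue taken from 2 rats. All p-values therefore rest on differences between pools, not rats, and the sources do not say whether a rat gave more than 1 tissue. The nerve samples were whole sciatic nerves, in which the nuclei belong to Schwann cells, fibroblasts and other cells while the cell bodies of the axons lie outside the tissue.

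Signals are in arbitrary units, with array medians of 162 to 199, and signals of different probe sets cannot be set against each other. The markers of each tissue were highest under its own label: the summed signal of 9 cerebellar neuron markers was 1299 to 1859 on the cord arrays and 67220 to 72960 on the cerebellum arrays, 5 motor neuron markers summed to 5486 to 5953 on the cord arrays and at most 545.2 elsewhere, and 7 Schwann cell markers summed to 89500 to 113400 on the nerve arrays and 32560 to 45060 on the cord arrays. Several arrays stood apart. The first nerve array of each treatment carried the cerebellar neuron markers at 14.5% (acrylamide) and 11.1% (saline) of the saline cerebellum mean, against 1.15% (acrylamide) and 1.28% (saline) on the second arrays. The sum of 8 skeletal muscle markers was 52530 on the first saline cord array and 4817 to 6179 on the other 3 cord arrays, and 27920 on the second acrylamide nerve array. The sum of 5 fat cell markers was 28960 on the first saline nerve array and 5016 to 10240 on the other 3 nerve arrays. In bulk tissue, fewer cells of a type and less RNA per cell cannot be told apart.

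Differences are given on the scale of log2(signal + 16) with their standard error from a limma model of all 12 arrays, and two-sided p-values carry a Benjamini-Hochberg adjustment over all probe sets tested. A probe set was tested in a tissue where its mean signal exceeded 110, the 40th percentile of all such means. By this filter 37 members were tested in cerebellum, 40 in spinal cord and 38 in sciatic nerve, and 13 genes were tested in no tissue. The untested genes were Kif1b, Kif6, Kif12, Kif18a, Klc3 and 8 of the 9 members grouped here as mitotic kinesins (Kif2c, Kif11, Kif14, Kif15, Kif18b, Kif20a, Kif20b and Kif23). Kif1b, which carries mitochondria and synaptic vesicle precursors in axons, had signals of 1.03 to 36.3 on the 12 arrays from its single probe set, so its level was not measured here.

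**Figure D1:**
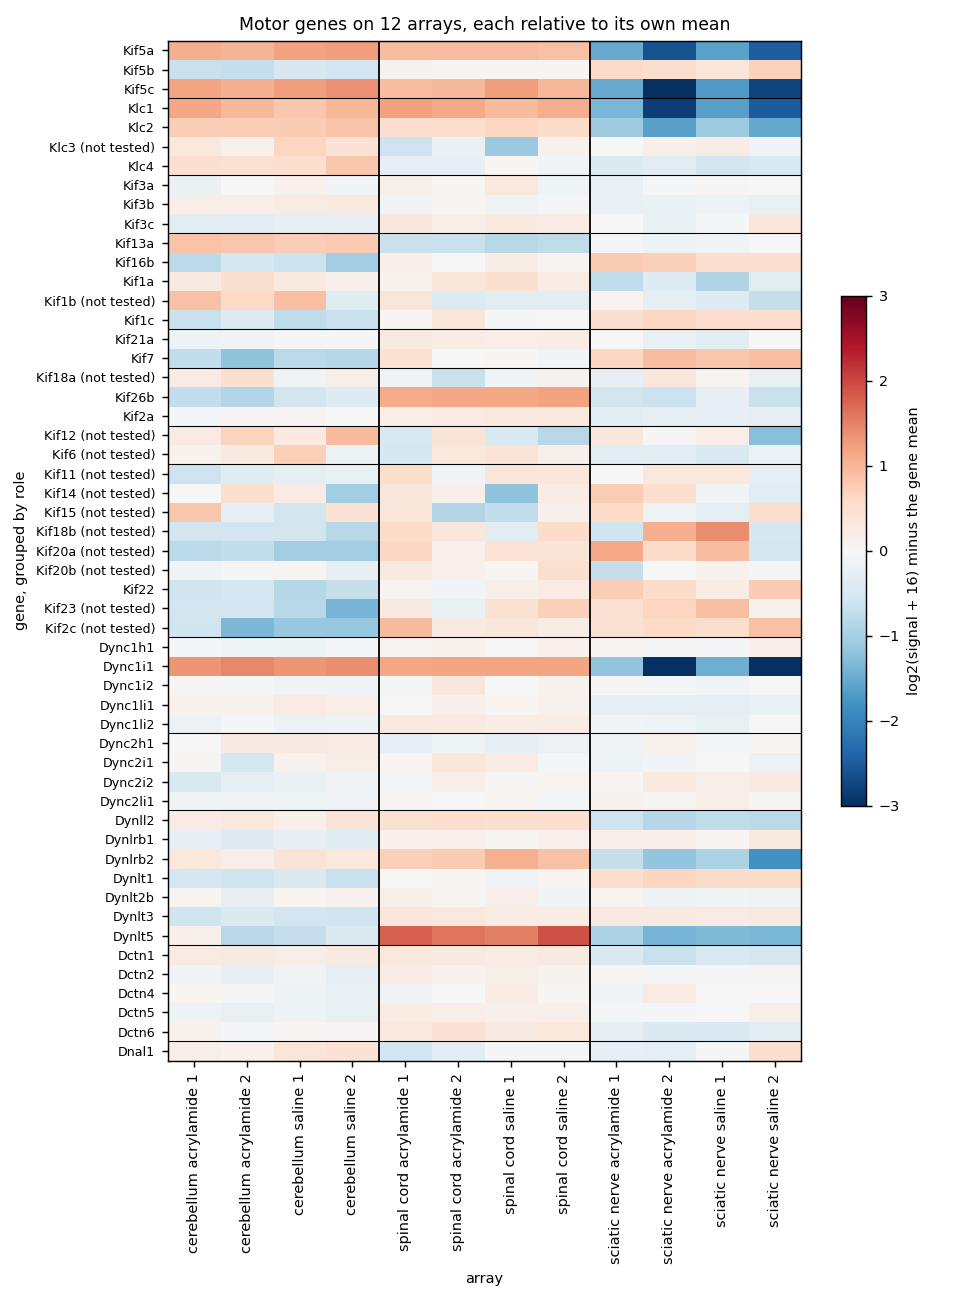
Each row is the chosen probe set of a motor gene, grouped by role, and each column an array. Colour gives log2(signal + 16) minus the gene's mean over the 12 arrays, in log2 units, with values beyond 3 either way drawn in the end colour. Kif5a, Kif5c, Klc1, Klc2 and Dync1i1 are blue on all 4 nerve arrays and darkest on the second array of each treatment, Kif26b and Dynlt5 are red in spinal cord, and within a tissue the acrylamide and saline columns look alike.

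RefSeq promoter sequences (assembly GRCr8) were found for 45 of the 53 genes. Of these, 6 genes were picked by hand to be shown, which is not a ranking of the members. Kif5c, Klc1 and Dync1i1 had low signals in nerve on their chosen probe sets. Kif5b and Dync1i2 are their relatives with nerve signals near or above those of cord, and Dnal1 was the member with the lowest p after acrylamide. The promoters of these 6 genes are printed. Each runs 5′ to 3′ on the plus strand from 250 bases before to 50 bases after the annotated gene start, with matches to the 6 motifs searched in capitals.
Kif5c, chr3:54441057-54441356: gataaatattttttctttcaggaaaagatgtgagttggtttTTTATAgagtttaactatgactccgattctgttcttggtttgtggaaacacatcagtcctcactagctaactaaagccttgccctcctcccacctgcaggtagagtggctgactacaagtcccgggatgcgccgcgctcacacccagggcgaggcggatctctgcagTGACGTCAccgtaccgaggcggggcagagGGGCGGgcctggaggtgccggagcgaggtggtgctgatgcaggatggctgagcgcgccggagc
Klc1, chr6:136644350-136644649: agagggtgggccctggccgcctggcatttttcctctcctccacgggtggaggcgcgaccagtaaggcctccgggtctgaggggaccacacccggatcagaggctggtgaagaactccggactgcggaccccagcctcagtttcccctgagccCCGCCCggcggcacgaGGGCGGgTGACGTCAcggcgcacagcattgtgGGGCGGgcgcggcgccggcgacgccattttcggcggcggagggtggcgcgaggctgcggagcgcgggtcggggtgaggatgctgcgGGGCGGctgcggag
Kif5b, chr17:56185136-56185435: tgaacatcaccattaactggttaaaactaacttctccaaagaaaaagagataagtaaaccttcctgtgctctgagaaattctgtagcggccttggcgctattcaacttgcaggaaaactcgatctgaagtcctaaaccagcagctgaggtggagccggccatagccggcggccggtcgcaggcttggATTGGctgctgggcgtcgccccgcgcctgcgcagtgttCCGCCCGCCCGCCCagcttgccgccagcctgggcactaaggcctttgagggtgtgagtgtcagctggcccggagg
Dync1i1, chr4:34819191-34819490: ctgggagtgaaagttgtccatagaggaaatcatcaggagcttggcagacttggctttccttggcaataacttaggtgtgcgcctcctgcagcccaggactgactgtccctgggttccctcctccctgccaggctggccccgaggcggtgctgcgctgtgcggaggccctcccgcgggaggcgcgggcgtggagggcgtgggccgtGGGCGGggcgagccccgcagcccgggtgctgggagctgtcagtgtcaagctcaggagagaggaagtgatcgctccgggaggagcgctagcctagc
Dync1i2, chr3:76441371-76441670: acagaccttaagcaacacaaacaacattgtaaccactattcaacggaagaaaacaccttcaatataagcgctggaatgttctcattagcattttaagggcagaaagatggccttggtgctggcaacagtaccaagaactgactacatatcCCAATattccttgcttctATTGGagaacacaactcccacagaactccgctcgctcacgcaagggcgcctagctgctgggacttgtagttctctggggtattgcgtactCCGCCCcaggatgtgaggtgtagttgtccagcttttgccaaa
Dnal1, chr6:109478691-109478990: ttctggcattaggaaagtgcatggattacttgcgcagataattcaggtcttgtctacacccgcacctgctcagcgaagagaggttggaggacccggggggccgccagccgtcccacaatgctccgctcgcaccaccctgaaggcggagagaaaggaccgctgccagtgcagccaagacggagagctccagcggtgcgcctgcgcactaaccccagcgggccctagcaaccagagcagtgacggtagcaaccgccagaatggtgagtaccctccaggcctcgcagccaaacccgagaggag
The motifs, read on both strands, were the GC box GGGCGG, the CCAAT box, the cAMP response element TGACGTCA, the E-box CACGTG, the NRF1 motif of 10 bases and the TATA box TATAAA.

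The GC box was present in 30 of the 45 member promoters (66.7%), against 33.1% of all 33469 promoters in the table, and the CCAAT box in 18 (40%), against 37.5%. The member promoters also had more G and C, with a median of 61.7% against 51.7% of all, and the GC box is itself made of those letters. TGACGTCA occurred in 4 member promoters (8.89%), those of Kif5c, Klc1, Kif15 and Kif18a, against 1.83% of all. In Kif5c and Klc1 it stands close to a GC box, as the capitals show. The E-box was found in 2 member promoters (4.44%, against 6.42%), the NRF1 motif in 1 (2.22%, against 0.852%) and the TATA box in 4 (8.89%, against 14.2%). The printed Dnal1 promoter held none of these letters, and the Dync1i1 promoter held a GC box alone. These are matches of letters, with no binding measured.

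Acrylamide was compared with saline in each tissue to ask whether exposure alters expression. None of the 37 members tested in cerebellum, the 40 in spinal cord or the 38 in sciatic nerve passed the limma test at an adjusted p of 0.05. Over all probe sets 0.00% were called in cerebellum, 0.00% in spinal cord and 0.00553% in sciatic nerve (1 of 18088). At an unadjusted p under 0.05 there were 0 members in cerebellum, 1 in spinal cord and 1 in sciatic nerve, the gene being Dnal1 in both, where 2.71%, 2.87% and 5.10% of all probe sets fell under that p. The median difference of the members was -0.02 in cerebellum (13 above 0 and 24 below), 0.02 in spinal cord (23 above and 17 below) and -0.01 in sciatic nerve (17 above and 21 below).

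Members whose acrylamide and saline arrays did not overlap were counted next, beside the share of all probe sets. In cerebellum both acrylamide arrays lay on one side of both saline arrays for 18 of 37 members, 14 of them below and 4 above, where the share over all probe sets was 33.7%. In spinal cord there were 17 of 40, 10 below and 7 above (33.6% of all), and in sciatic nerve 6 of 38, 4 below and 2 above (26.3% of all). In all 3 tissues at once, both acrylamide arrays lay below both saline arrays for 1 of the 36 members tested in all 3, Dnal1, against 0.907% of all probe sets. No member lay above in all 3, against 0.748% of all.

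**Figure D2:**
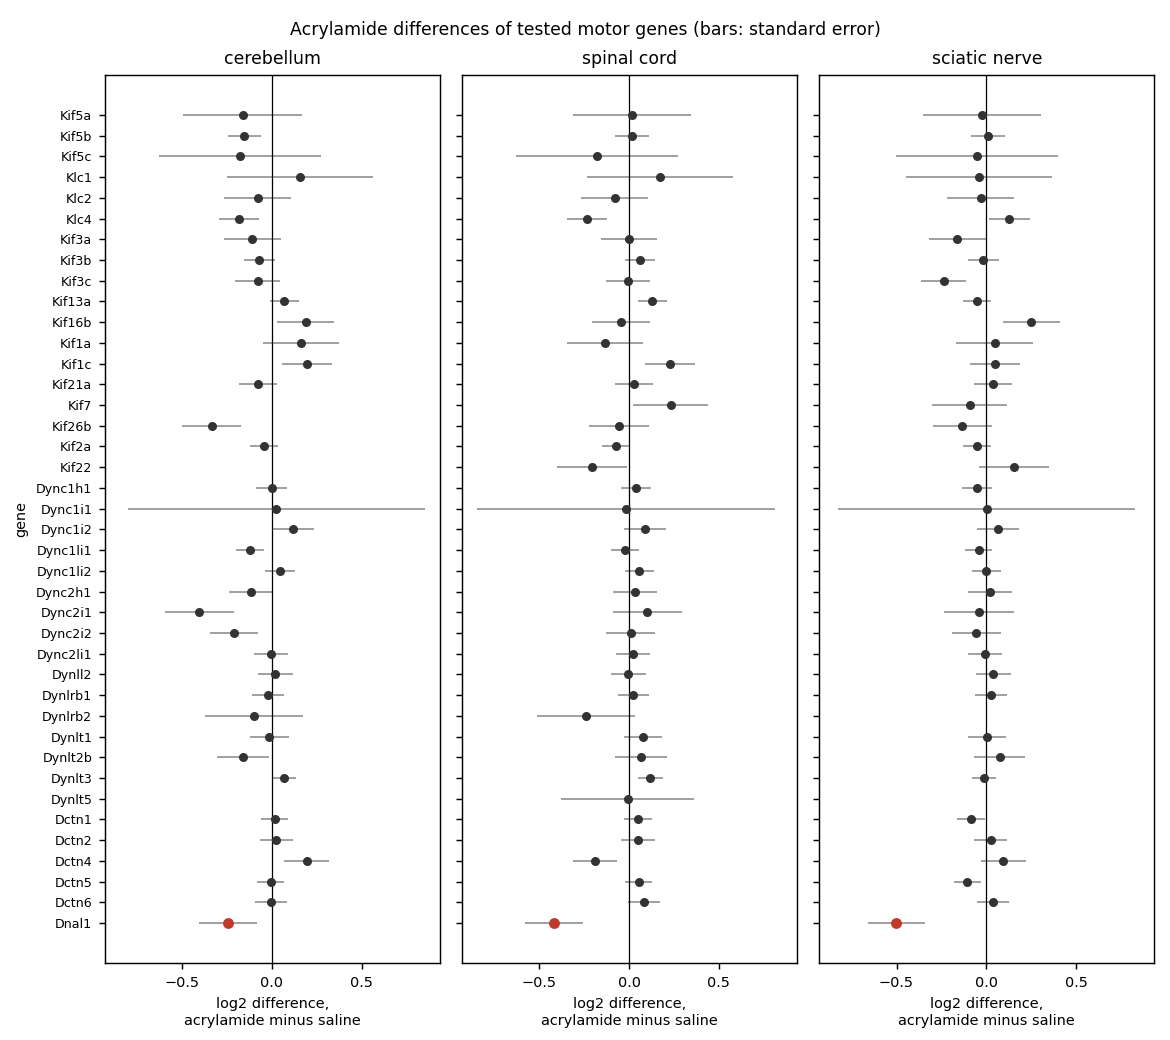
Points are log2 differences, acrylamide minus saline, of each tested member in each tissue, and bars are the standard error from limma, with 2 arrays per group. Dnal1, in red, lies at -0.24, -0.42 and -0.50 in cerebellum, spinal cord and sciatic nerve, and Dync1i1, Kif5c, Klc1 and Kif5a have the wide bars that follow from the spread between their 2 nerve arrays.

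Dnal1 was the member with the smallest p in spinal cord, in sciatic nerve and over the tissues, though it did not pass the adjusted test. Its signals in cerebellum were 1150 and 1113 with acrylamide, against 1314 and 1372 with saline. In spinal cord they were 677 and 794 with acrylamide, against 976 and 992 with saline. In sciatic nerve they were 853 and 820.0 with acrylamide, against 974.9 and 1451 with saline. The groups did not overlap in any tissue, and the first and second saline nerve arrays differed more from each other than the first differed from the acrylamide arrays. The limma differences were -0.24 ± 0.16 in cerebellum (adjusted p = 1), -0.42 ± 0.16 in spinal cord (adjusted p = 1) and -0.50 ± 0.16 in sciatic nerve (adjusted p = 0.909). The average over the tissues was -0.39 ± 0.09 (limma adjusted p = 0.533), with a 95% interval of -0.60 to -0.18.

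Of the other probe sets of Dnal1, 1388299_at gave 330 and 359 in acrylamide cerebellum, against 527 and 592 in saline cerebellum. It gave 264 and 317 in acrylamide cord, against 400.1 and 437 in saline cord, and 219 and 257 in acrylamide nerve, against 242 and 270.1 in saline nerve. The groups were thus apart in cerebellum and cord and overlapped in nerve. Its limma differences were -0.67 ± 0.14 (adjusted p = 1), -0.51 ± 0.14 (adjusted p = 1) and -0.10 ± 0.14 (adjusted p = 0.999), and the average was -0.43 ± 0.08 (adjusted p = 0.36). Its 95% intervals excluded 0 in cerebellum (-0.99 to -0.36) and cord (-0.82 to -0.19) before adjustment. The dimmest probe set, 1397484_at, also lay lower in both acrylamide arrays in cerebellum (-0.17 ± 0.25) and cord (-0.54 ± 0.25), and overlapped in nerve (-0.20 ± 0.25).

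**Figure D3:**
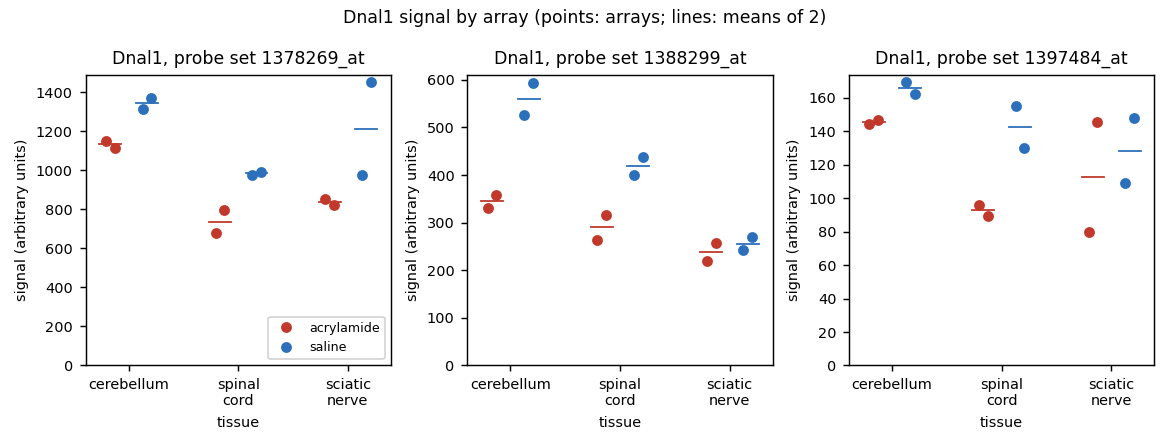
Points are arrays and lines the means of 2 arrays, for the 3 probe sets of Dnal1, with signal in arbitrary units on axes that start at 0. In cerebellum and spinal cord all 3 probe sets have both acrylamide points below both saline points, and in sciatic nerve this holds for 1378269_at alone.

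The call for Dnal1 turned on which nerve arrays were kept. Without the first saline nerve array, the one with high fat cell markers, the sciatic nerve difference was -0.78 (limma adjusted p = 0.0499) and the average was -0.48 (adjusted p = 0.0308), with 0.194% and 0.150% of all probe sets called. Without the first nerve array of both treatments, a setting chosen after seeing the data, the nerve difference was -0.81 (adjusted p = 0.0159) and the average -0.49 (adjusted p = 0.00828), with 2.13% and 1.28% of all probe sets called. Leaving out the first saline cord array as well gave -0.81 (adjusted p = 0.0257) and -0.49 (adjusted p = 0.0208), with 1.75% and 0.953% called. Each of these fits leaves 1 saline nerve array, which is assumed to vary like the other groups. Without both first nerve arrays, 1 acrylamide nerve array is left as well. Its skeletal muscle markers summed to 27920, against 3448 on the saline nerve array kept. With each array left out in turn, the nerve difference ranged from -0.78 to -0.22. The values are those of the chosen probe set, which had 820 with acrylamide and 1451 with saline on the second nerve arrays. The other probe sets were nearly level there. On these arrays 1388299_at had 257 with acrylamide, against 270 with saline, and 1397484_at had 146 with acrylamide, against 148 with saline. On the first acrylamide nerve array, kept in the first of these fits, they had 219 and 79.9. The ciliated cell markers (6 of 10 on the arrays, Dnal1 not among them) summed to 803.1 and 776.6 in acrylamide cerebellum against 696.9 and 847.2 in saline cerebellum, and to 4304 and 4758 in acrylamide cord against 4265 and 4121 in saline cord. In acrylamide nerve they summed to 1957 and 2309, against 1968 and 1494 in saline nerve. Most of the cord and nerve sums was Tppp3, at 3661 and 4032 in acrylamide cord against 3595.5 and 3593.5 in saline cord. In nerve Tppp3 had 1808 and 2130 with acrylamide, against 1845 and 1414 with saline. Other markers were dim in cerebellum. Foxj1 had 87.1 and 87.7 there with acrylamide, against 96.7 and 109 with saline. Rsph1 had 32.3 and 31.1 with acrylamide, against 46 and 70.8 with saline. Tekt1 lay higher, with 171 and 139 against 89.8 and 137, and Dnai1 overlapped, with 90.5 and 114 against 125 and 109. In cord Foxj1, Rsph1 and Dnai1 overlapped and Tekt1 lay higher. The part of ciliated cells in the Dnal1 difference was not tested.

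Among the kinesin-1 heavy chains, which drive fast outward transport, no difference passed the test. Kif5a had 4154 and 3926 in acrylamide cerebellum, against 4449 and 4606 in saline cerebellum. Kif5b had 4317 and 4255 in acrylamide cerebellum, against 4909 and 4635 in saline cerebellum. Kif5c had 2025 and 1903 in acrylamide cerebellum, against 2120.1 and 2328 in saline cerebellum. In each of the 3 genes both acrylamide arrays lay below both saline arrays, with differences of -0.16 ± 0.33, -0.15 ± 0.09 and -0.18 ± 0.45, and a limma adjusted p of 1 for each.

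The width of these errors followed from the nerve arrays, since the model holds 1 spread per probe set over the 6 groups. In a fit of the cerebellum alone the difference of Kif5a was -0.16 ± 0.07 (limma adjusted p = 0.951) and that of Kif5c -0.18 ± 0.08 (adjusted p = 0.952), with Kif5b at -0.15 ± 0.07 (adjusted p = 0.952). In that fit 2 of 37 members, Kif5a and Dnal1, had an unadjusted p under 0.05, against 5.23% of all probe sets. In fits of the cord and the nerve alone there were 1 of 40 (5.49% of all) and 0 of 39 (1.72% of all). The second probe sets 1375875_at of Kif5a and 1378096_at of Kif5b lay at -0.31 ± 0.09 and -0.35 ± 0.12 in the cerebellum alone, with limma adjusted p of 0.622 and 0.879. The other probe sets of Kif5c went different ways, at -0.12 ± 0.17 and 0.09 ± 0.17.

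In spinal cord, where motor neuron cell bodies lie, the limma intervals were narrower for the ubiquitous forms than for the neuronal ones. Kif5b had 7358 and 7146 with acrylamide, against 7115 and 7217 with saline, a difference of 0.02 with a 95% interval of -0.19 to 0.23. Kif5a had 3672 and 3676 with acrylamide, against 3711 and 3557 with saline, a difference of 0.02 (-0.73 to 0.76). Both genes overlapped between the groups. Kif5c had 1684 and 1764 with acrylamide, against 2146 and 1779 with saline, and lay lower at -0.18 ± 0.45. In a fit of the cord alone the intervals were -0.14 to 0.17 for Kif5a and -0.42 to 0.06 for Kif5c.

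The kinesin light chains link the motor to cargo. Klc4 had the second smallest p in spinal cord, with 553 and 558 with acrylamide, against 686 and 629 with saline, a difference of -0.23 ± 0.11 (limma adjusted p = 1). In cerebellum it lay at -0.18 ± 0.11 and in sciatic nerve at 0.13 ± 0.11, both without overlap. It had the largest F among members for a difference between tissues (F = 3.06, limma adjusted p = 1), ahead of Dctn4 (F = 2.55). By that F test 0 members had an unadjusted p under 0.05, against 2.75% of all probe sets, and 0.00% of all were called. Klc1 lay at 0.16 ± 0.41 in cerebellum and 0.17 ± 0.41 in cord, and Klc2 at -0.08 ± 0.19 in both.

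The other members named by their p had small differences. In cerebellum, Dync2i1, an intermediate chain of the dynein-2 motor of cilia, had 358 and 239 with acrylamide, against 387 and 399 with saline (-0.40 ± 0.19, limma adjusted p = 1). Kif26b, a kinesin without motor activity of the usual kind, had 113 and 102 with acrylamide, against 131 and 149 with saline (-0.34 ± 0.16, limma adjusted p = 1). Dync2i2 lay at -0.21 ± 0.14, Dync1li1, which links dynein to adaptors, at -0.12 ± 0.08, and Dctn4, a dynactin subunit, at 0.19 ± 0.12. All of these groups were apart, and none reached an unadjusted p of 0.05.

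In spinal cord, Kif1c, a fast transporter of dense-core vesicles, lay at 0.23 ± 0.14, Dynlt3 at 0.12 ± 0.07 and Kif13a, an endosome motor, at 0.13 ± 0.08, all 3 without overlap and with a limma adjusted p of 1. The other probe sets of Kif13a overlapped in cord. For 1397272_at the signals were 230.3 and 224 with acrylamide, against 229.8 and 259 with saline. For 1390319_at they were 123 and 151 with acrylamide, against 129 and 130 with saline. Dctn4 lay at -0.19 ± 0.12, the opposite sign to cerebellum, and Kif7 and Kif22 lay at 0.23 ± 0.21 and -0.20 ± 0.19. In sciatic nerve, Kif3c, a kinesin-2 chain of neurons, had 2172 and 1872 with acrylamide, against 2086.5 and 2716 with saline (-0.24 ± 0.12, limma adjusted p = 0.982), and the groups overlapped. Without the first nerve array of both treatments it was called at -0.53 (limma adjusted p = 0.0299), resting on 1 array a side. Kif16b, an endosome kinesin, had 545 and 529 with acrylamide, against 455 and 444 with saline (0.25 ± 0.16, limma adjusted p = 0.999). Dctn5 lay at -0.11 ± 0.08, Dctn1 at -0.09 ± 0.08 and Kif3a at -0.16 ± 0.16.

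In the core of the dynein motor no difference between acrylamide and saline passed the test. Dync1h1, the heavy chain that holds the motor domain, had 4170 and 4006 in acrylamide cerebellum against 3959 and 4227 in saline cerebellum, and 4621 and 4716 in acrylamide cord against 4327 and 4774 in saline cord. In nerve it had 4464 and 4249 with acrylamide, against 4200 and 4856 with saline. The groups overlapped in all 3 tissues, and the 95% limma intervals of the differences were -0.19 to 0.19, -0.15 to 0.23 and -0.25 to 0.14. For Dctn1, the large dynactin subunit that binds microtubules, they were -0.16 to 0.19, -0.12 to 0.23 and -0.26 to 0.09. Over the tissues, the average differences of the 40 members had a median of -0.00 (19 above 0 and 21 below) and none was called, against 0.00937% of all probe sets. At an unadjusted p under 0.05 there was 1, Dnal1, against 5.56% of all. After Dnal1, the smallest p of an average belonged to Kif1c (0.16 ± 0.08), Kif26b (-0.18 ± 0.09) and Kif3c (-0.11 ± 0.07).

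The tissues were then compared in saline rats, to describe where each motor gene is expressed, and a difference was called at an adjusted p of 0.05 and a change of at least 2-fold. In sciatic nerve, 9 of 40 members were lower than in spinal cord and none was higher, where 15.5% of all probe sets were lower and 10.6% higher (26.1% together). The 9 were Kif5a, Kif5c, Klc1, Klc2, Kif26b, Dync1i1, Dynll2, Dynlrb2 and Dynlt5. Dynlrb2 and Dynlt5 passed the filter on low signals here through cord alone, the tissue where they are high, so the filter favoured their calls. The median of the 40 members was -0.15, against 0.04 of all probe sets. By the adjusted p alone, 17 members were lower and 5 higher, where 28.8% of all probe sets were lower and 29.1% higher (57.9% together).

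The neuronal heavy chains Kif5a and Kif5c and the light chains Klc1 and Klc2 were among the members with the widest gap on their chosen probe sets. Kif5a had 621 and 336 in saline nerve, against 3711 and 3557 in saline cord, a difference of -2.95 ± 0.33 (limma adjusted p = 8.04e-05). Kif5c had 260 and 116 in saline nerve, against 2146 and 1779 in saline cord, a difference of -3.37 ± 0.45 (adjusted p = 0.000232 by limma). Klc1 had 1105 and 600 in saline nerve, against 6626 and 7311 in saline cord (-3.07 ± 0.41, limma adjusted p = 0.000213). Klc2 had 645 and 462 in saline nerve, against 2128.5 and 2044 in saline cord (-1.90 ± 0.19, limma adjusted p = 3.9e-05). On the chosen probe set of each of these genes both nerve arrays lay far below both cord arrays. The nerve means were 13.2%, 9.58%, 12.2% and 26.5% of the cord means. Another probe set of Klc1, 1399126_at, went the other way, with 2047 and 2883 in saline nerve against 1150 and 1210 in saline cord.

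Kif5b, the heavy chain of most cell types, went the other way. It had 8895 and 11118 in saline nerve, against 7115 and 7217 in saline cord (0.47 ± 0.09, limma adjusted p = 0.00215), which is under 2-fold. Its second probe set gave 0.53 ± 0.12. The light chain Klc4 was lower in nerve by less than 2-fold, at -0.48 ± 0.11 (limma adjusted p = 0.00496). The other transport kinesins also stayed within 2-fold: Kif3a, Kif3b and Kif3c lay at -0.08 ± 0.16, -0.11 ± 0.09 and -0.11 ± 0.12, and Kif21a, which carries cargo and steadies microtubule ends, at -0.36 ± 0.11. Kif2a, which takes microtubules apart, lay at -0.55 ± 0.08. Kif1a, the carrier of synaptic vesicle precursors, had 161 and 243 in saline nerve, against 446 and 370.4 in saline cord, and at -0.98 ± 0.21 (limma adjusted p = 0.00349) fell just short of 2-fold, a limit it passed with a pseudocount of 1 (-1.04).

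Kif26b had 167 and 119 in saline nerve, against 468 and 481 in saline cord (-1.64 ± 0.16, limma adjusted p = 4.3e-05), with both nerve arrays below both cord arrays. Higher in nerve by the adjusted p but under 2-fold were, besides Kif5b, Kif7 (0.90 ± 0.21), a regulator of Hedgehog signalling in cilia, Kif13a (0.74 ± 0.08), Kif1c (0.52 ± 0.14) and Dynlt1 (0.59 ± 0.11). Kif7 had 326 and 340.2 in saline nerve, against 179 and 164 in saline cord, and was called higher in nerve under quantile normalization (1.04).

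The intermediate chains of dynein, which join the motor to dynactin, showed the same kind of split as the kinesin-1 heavy chains. Dync1i1, the form known from neurons, had 433 and 82.5 in saline nerve, against 2813 and 2789 in saline cord. The difference was -3.74 ± 0.83 (limma adjusted p = 0.0039), and 1 of the 2 nerve arrays lay below the filter signal of 110, so its size is uncertain. Dync1i2, the ubiquitous form, had 3523 and 3803 in saline nerve, against 3801 and 4113 in saline cord (-0.11 ± 0.12, limma adjusted p = 0.438). Dync1h1 had 4200 and 4856 in saline nerve, against 4327 and 4774 in saline cord, a difference of -0.01 ± 0.09. Dync1li1 and Dync1li2 lay at -0.33 ± 0.08 and -0.32 ± 0.08, lower in nerve by less than 2-fold.

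Of the light chains, Dynll2, which also binds myosin V, had 4578 and 4422 in saline nerve, against 10840 and 11083 in saline cord (-1.28 ± 0.10, limma adjusted p = 9.56e-06), and its second probe set gave -1.30 ± 0.09. Dynlrb2 had 63.9 and 27.7 in saline nerve, against 310 and 269 in saline cord, so that cord was at least 2.42-fold higher (limma adjusted p = 9.54e-05). Dynlt5 had 2.76 and 2.03 in saline nerve, against 117 and 159 in saline cord, at least 1.21-fold higher in cord (limma adjusted p = 0.000125). Their counterparts Dynlrb1 (0.07 ± 0.09) and Dynlt3 (0.06 ± 0.07) did not pass the test. The dynactin subunits Dctn1 and Dctn6 were lower in nerve by less than 2-fold, at -0.72 ± 0.08 and -0.70 ± 0.09, and Dctn2, Dctn4 and Dctn5 lay between -0.16 and -0.08.

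**Figure D4:**
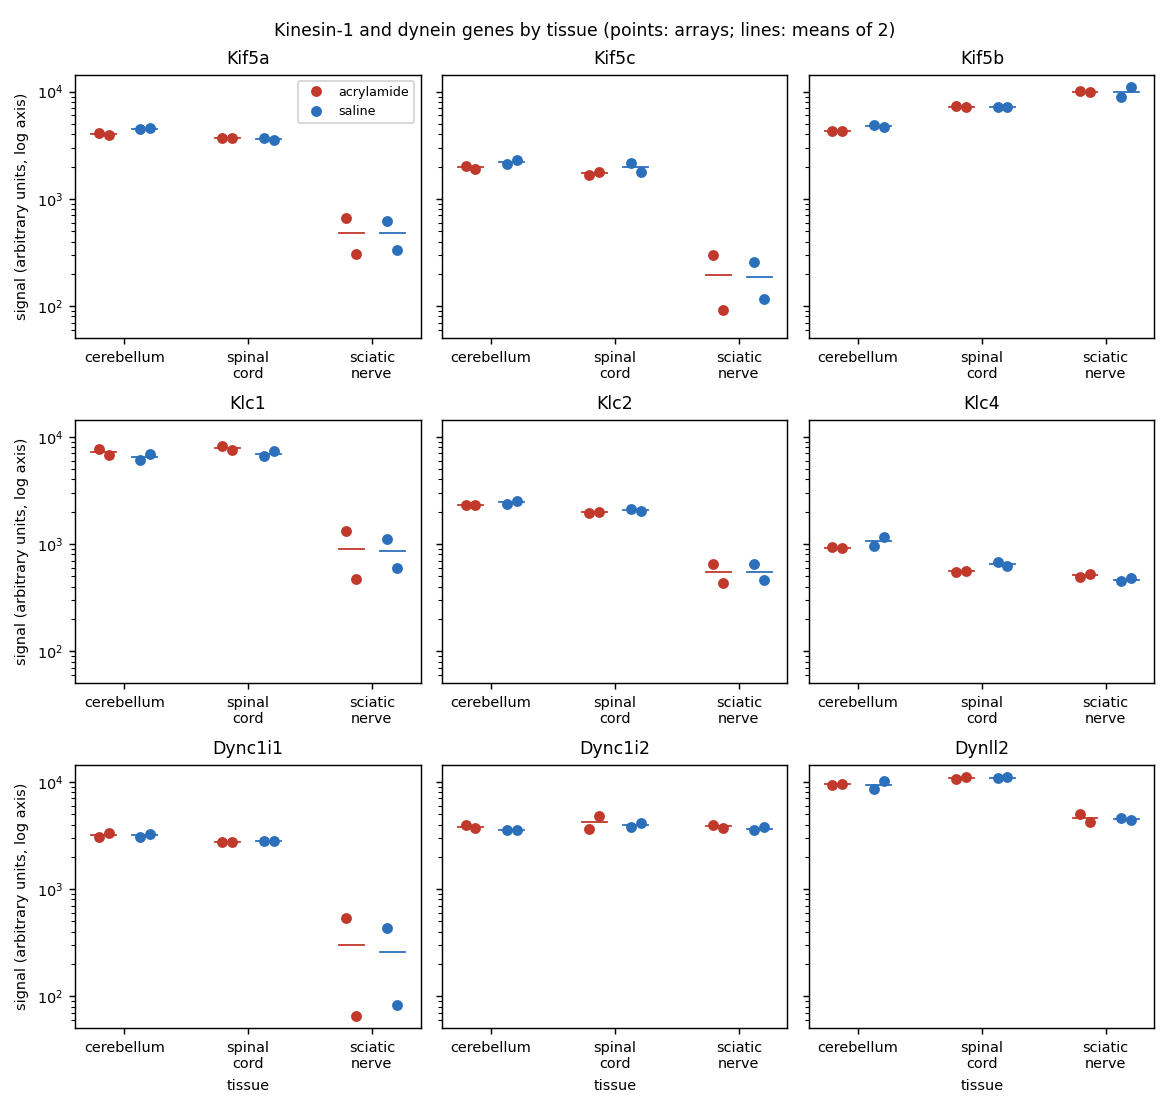
Points are arrays and lines the means of 2 arrays, by tissue and treatment, for the chosen probe set of each gene, with signal in arbitrary units on a log axis. Kif5a, Kif5c, Klc1, Klc2 and Dync1i1 drop in the sciatic nerve, where Kif5b is highest (saline mean 10010 in nerve, 7166 in cord and 4772 in cerebellum) and Dync1i2 is level with the other tissues.

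The nerve arrays differed among themselves in several of the genes that were low in nerve. Dync1i1 had 533 on the first and 64.8 on the second acrylamide array, against 433 and 82.5 on the saline arrays, both second arrays lying below the filter signal. Kif5c had 299 and 91.6 on the acrylamide arrays, the second below the filter signal, against 260 and 116 on the saline arrays. In both treatments the first array was the higher one. Kif5a (2.18-fold with acrylamide and 1.85-fold with saline) and Klc1 (2.79-fold and 1.84-fold) did the same, whereas for Dync1i2 the ratios were 1.05 and 0.926. Kif1a, also lower in nerve than in cord, went the other way, with ratios of 0.753 with acrylamide and 0.663 with saline. On these arrays the cerebellar neuron markers stood at 14.5% and 11.1% of the cerebellum on the first arrays and 1.15% and 1.28% on the second, and 12 general neuron markers summed to 19430 and 6987 with acrylamide, against 17930 and 8356 with saline. Snap25 alone had 7298 and 533 with acrylamide, and 5794 and 758 with saline. Uchl1 (1510 and 1862, 1538 and 2027) and Tubb3 (368 and 379, 462 and 550.0) were lower on the first arrays, and the rest of the list was higher on them. The part of these markers in the tissue differences was not tested. On the second saline arrays alone, the nerve signal was 6.54% of cord for Kif5c, 8.2% for Klc1, 9.43% for Kif5a and 22.6% for Klc2, lower than with both arrays.

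**Figure D5:**
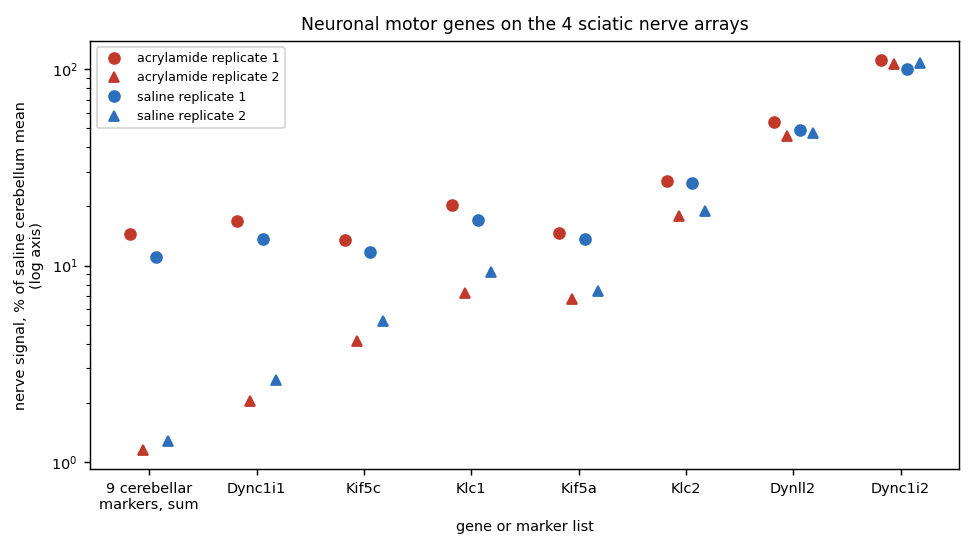
The vertical axis, on a log scale, gives the signal on each of the 4 sciatic nerve arrays as a percentage of the saline cerebellum mean; circles are first and triangles second arrays, red with acrylamide and blue with saline. The first array of both treatments is higher than the second for the summed cerebellar markers, Dync1i1, Kif5c, Klc1, Kif5a and Klc2, while for Dync1i2 all 4 lie between 99.7% and 111%. Both second arrays of Dync1i1 and the second acrylamide array of Kif5c lie below the filter signal of 110, so their height is not well measured.

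Few members differed between spinal cord and cerebellum by both the adjusted p and the 2-fold limit. Of 40 tested, 3 were higher in cord (Kif26b, Kif16b and Dynlt5) and 1 lower (Kif13a), where 12.0% of all probe sets were higher and 9.54% lower (21.6% together). The members' median was 0.22, against -0.06 of all probe sets, and by the adjusted p alone 17 members were higher and 5 lower, where 26.0% of all probe sets were higher and 27.1% lower (53.1% together). Kif26b had 468 and 481 in saline cord, against 131 and 149 in saline cerebellum (1.65 ± 0.16, limma adjusted p = 5.47e-05). Kif13a had 610.3 and 643 in saline cord, against 1831 and 1912 in saline cerebellum (-1.55 ± 0.08, limma adjusted p = 1.91e-06). The arrays of the tissues were far apart in both genes. All 3 tested probe sets of Kif13a were called lower and 2 of the 3 tested probe sets of Kif26b were called higher, the other lying at -0.33 ± 0.32.

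Kif16b had 373 and 334 in saline cord, against 196 and 145 in saline cerebellum, a difference of 1.0 ± 0.16 (limma adjusted p = 0.000776) that stands at the 2-fold limit and fell below it in 5 alternatives. Its second tested probe set gave 0.40 ± 0.18. Dynlt5 had 117 and 159 in saline cord, against 12.96 and 18.4 in saline cerebellum, at least 1.21-fold higher in cord (limma adjusted p = 0.000875), and it passed the filter through cord alone, which favoured its call. Dynlrb2, its fellow light chain with a low nerve signal, lay at 0.62 ± 0.27 (limma adjusted p = 0.082). The 6 ciliated cell markers on the arrays summed to 4265 and 4121 in saline cord against 696.9 and 847.2 in saline cerebellum, and to 1968 and 1494 in saline nerve. Most of the cord and nerve sums was Tppp3 alone. It had 3595.5 and 3593.5 in saline cord, 306 and 414 in saline cerebellum, and 1845 and 1414 in saline nerve. Tekt1 had 241 and 216 in saline cord, against 89.8 and 137 in saline cerebellum and 49.3 and 61.4 in saline nerve. Dnai1 had 121 and 110 in saline cord, against 125 and 109 in saline cerebellum and 10.7 and 7.01 in saline nerve. Foxj1, the master regulator of motile cilia, had 183 and 132 in saline cord, against 50.1 and 6.22 in saline nerve, and the part of ciliated cells in the light chain differences was not tested.

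For Kif5a, Kif5c, Klc1, Klc2 and Dync1i1, which were low in nerve on their chosen probe sets, the saline cord means were compared with cerebellum. They were 80.3% of the cerebellum mean for Kif5a, 88.2% for Kif5c, 107% for Klc1, 85.5% for Klc2 and 88.5% for Dync1i1. Kif5a had 3711 and 3557 in saline cord, against 4449 and 4606 in saline cerebellum (-0.32 ± 0.33), and Dync1i1 had 2813 and 2789 in saline cord, against 3081 and 3252 in saline cerebellum (-0.18 ± 0.83). Neither passed the limma test, with adjusted p of 0.444 and 0.871. In both genes both cord arrays lay below both cerebellum arrays. The errors carry the spread of the nerve arrays, so the test cannot show that the tissues are level. Kif5a 1375875_at had 1753 and 1587 in saline cord, against 2510 and 2261 in saline cerebellum. Kif5c 1396154_at had 444 and 532 in saline cord, against 862 and 1082 in saline cerebellum. Kif5b was higher in cord by less than 2-fold (0.59 ± 0.09, limma adjusted p = 0.000798), as were Kif3c (0.52 ± 0.12), Kif1c (0.70 ± 0.14), Dynlt3 (0.79 ± 0.07) and Dync1li2 (0.38 ± 0.08). Klc4 was lower in cord, with 686 and 629 in saline cord against 954 and 1165 in saline cerebellum (-0.67 ± 0.11, limma adjusted p = 0.00105). Dync2h1, the heavy chain of the ciliary motor, was also lower (-0.48 ± 0.12), as were Kif3b (-0.35 ± 0.09) and Dnal1 (-0.44 ± 0.16).

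The members grouped as mitotic kinesins, which build and move the spindle, had mean signals below the filter in every tissue, apart from Kif22. Kif18a, grouped here with the kinesins of microtubule ends, was below the filter as well. Kif22 was tested in cord and nerve, where it had 169 and 250 in saline nerve, against 160 and 172 in saline cord, and 70.7 and 80.4 in saline cerebellum. By the limma test it did not pass between nerve and cord (adjusted p = 0.233) and was higher in cord than in cerebellum by just under 2-fold (0.99 ± 0.19, adjusted p = 0.00247), a limit it passed in several alternatives. The 8 others grouped as mitotic had single-array signals of 3.28 to 166. The markers of cycling cells (13 of 15 on the arrays) summed to 836.6 to 993.8 in cerebellum, 911.8 to 1861 in cord and 1042 to 1425 in nerve.

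The probe sets of Klc1 disagreed between tissues. The chosen probe set 1370886_a_at and 1388125_a_at (-1.70 ± 0.27) were lower in nerve, but 1399126_at was higher, with 2047 and 2883 in saline nerve, against 1150 and 1210 in saline cord, and 550.4 and 569 in saline cerebellum. The order nerve, cord, cerebellum held on every array of 1399126_at, with limma differences of 1.03 ± 0.14 for nerve against cord and 1.05 ± 0.14 for cord against cerebellum, both called. In Kif5c, 1395997_at was lower in cord than in cerebellum (-1.44 ± 0.39, limma adjusted p = 0.0117), unlike the chosen probe set. With every probe set counted, 16 of 60 were called between nerve and cord and 9 of 62 between cord and cerebellum, beside 26.1% and 21.6% of all probe sets.

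Genes that join motors to cargo or regulate them were read as a companion list, of which 38 of 43 were on the arrays. The list also held Kifc2 and Kifc3, which are kinesins themselves, with symbols outside the member pattern. After acrylamide none of the 36 tested in cerebellum, 35 in spinal cord or 32 in sciatic nerve passed the limma test, and 1 gene in each tissue had an unadjusted p under 0.05, where the shares of all probe sets were 2.71%, 2.87% and 5.10%. These were Trak2, an adaptor of mitochondria (-0.21 ± 0.09 in cerebellum), Snapin, an adaptor of dynein on endosomes (0.18 ± 0.07 in cord), and Htt, the huntingtin scaffold (-0.34 ± 0.15 in nerve). Between saline nerve and cord 6 of 35 were lower and 1 higher, beside 15.5% and 10.6% of all probe sets. Snph, which docks mitochondria in axons, had 137 and 118 in saline nerve, against 869 and 762 in saline cord (-2.54 ± 0.21), and Hap1, a partner of huntingtin, lay at -2.36 ± 0.16. Madd, Kifc2, Kifap3 and Bicdl1 were also lower, and Fez2 higher (1.09 ± 0.12). Between saline cord and cerebellum 3 of 37 were higher (Nde1, Kifc3 and Trak2) and 1 lower (Hook1), beside 12.0% and 9.54% of all.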

How the data were processed

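Total RNA was labelled with biotin and hybridised to 1-colour Affymetrix rat arrays. The authors deposited an intensity signal for each probe set, computed in GCOS 1.1, per the submitters' processing notes. The background correction is not given in the sources used here. Each array had been scaled to a common trimmed mean (500.1 to 500.2, with 2% trimmed at each end). The members, gene lists and tests were chosen with earlier results of these data known.

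The 12 arrays were grouped by the tissue and treatment in their labels, and 57 control probe sets were left out. Values were analysed as log2(signal + 16), which understates the differences of dim genes. One limma 3.58.1 model (R 4.3.3, lmFit and eBayes with an intensity trend) held the 6 group means of 21347 probe sets, with 6 residual and 3.14 prior degrees of freedom. The median standard error of a difference was 0.16, and each error depends on the number of arrays and on the spread of its probe set. P-values were adjusted by Benjamini-Hochberg over all probe sets tested in a comparison. For a bound ("at least N-fold") a dim array was set at the filter signal of 110.

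Members were named where called, or among the 8 smallest p in a tissue and the 4 smallest p for the average and for the tissue differences, or as core transport genes or members whose probe sets disagreed. Dynll1 and Dctn3 share probe sets with near copies and were not members. Same-numbered acrylamide and saline arrays deviated together in nerve (r = 0.43) but not in cerebellum (r = 0.06) or cord (r = -0.07), so the numbers were not taken as pairs. Promoters came from RefSeq, assembly GRCr8. Alternatives were other scalings, pseudocounts of 1 and 64, other filters, eBayes settings and probe set rules, replicate blocks, tissues fitted alone, acrylamide arrays in the tissue comparisons, and arrays left out. The model was tested on simulated data.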

Additional observations from a re-analysis of the deposited data

How the results depend on the processing

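The counts of calls and the named differences recomputed under the alternatives kept their direction, while 1 further probe set of Klc1 (1399126_at) was called higher in nerve than in cord, against the chosen one. After acrylamide, 0 members were called in cerebellum, in spinal cord and by the test of tissue differences under every alternative run. In sciatic nerve 22 of 25 alternatives gave 0 and in the average 21 of 24 gave 0. Leaving out each array in turn gave 0 to 1 members in nerve and 0 to 1 in the average, the 1 being Dnal1 without the first saline nerve array. Without the first nerve array of both treatments there were 2 in nerve and 1 in the average, and without these and the first saline cord array again 2 and 1, both settings chosen after seeing the data. In the last, the nerve values were -0.81 for Dnal1 (limma adjusted p = 0.0257) and an adjusted p of 0.0476 for Kif3c. Over its alternatives Dnal1 ranged from -0.81 to -0.22 in nerve and from -0.49 to -0.29 in the average. For cord against cerebellum, where 4 members were called, there were 7 with no filter (more genes tested) and 9 with every probe set counted, 4 to 4 with arrays left out, and as few as 3 (pseudocount of 64, 60th percentile filter, or acrylamide arrays included). Kif22 was called higher in cord under quantile normalization (1.0), median centring (1.04), a pseudocount of 1 (1.13), without the second saline cerebellum array (1.07) and without the first saline cord array, alone or with both first nerve arrays (1.04 each). For nerve against cord, where 9 were called, every probe set gave 16, the 60th percentile filter 7, and 9 to 10 were called with arrays left out. Kif7 was called higher in nerve under quantile normalization (1.04), and Kif1a lower with a pseudocount of 1 (-1.04), without the second saline cord array (-1.11) and without the second saline nerve array (-1.25). Kif16b fell under 2-fold between cord and cerebellum with a pseudocount of 64 (0.84), without the second saline cerebellum array (0.80), without the first saline cord array, alone or together with both first nerve arrays (0.92 each), and with acrylamide arrays included (0.88); the cause was not tested. With the replicate number as a fixed or random block (correlation 0.125) the counts of calls were the same, 4 and 9 between tissues and 0 after acrylamide. Arrays under the signal of 110 give bounds only, and with 2 arrays a group small differences could not be detected.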

Other observations

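Dynll1 and Dctn3 are measured by probe sets that also carry the symbol of a near copy (Dynll1l1 and Dctn3l1), so they were described apart from the members. The Dynll1 probe set had 10485 and 11310 in acrylamide nerve, 6966 and 6055 in acrylamide cord, and 4019 and 3935 in acrylamide cerebellum. With saline it had 10807 and 13694 in nerve, 7128 and 7475 in cord, and 3964 and 4129.7 in cerebellum. In both treatments the nerve arrays lay above those of cord, and these above those of cerebellum. In cord both acrylamide arrays lay below both saline arrays, and in the other tissues they overlapped. The Dctn3 probe set had 2031 and 2215 in saline nerve, 2920.2 and 2951 in saline cord, and 2792 and 2941.5 in saline cerebellum.

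The second probe set of Dynll2, 1387782_at, had both acrylamide arrays below both saline arrays in all 3 tissues, with limma differences of -0.14 ± 0.09 in cerebellum, -0.20 ± 0.09 in cord and -0.14 ± 0.09 in nerve and an average of -0.16 ± 0.05 (adjusted p = 0.728). The brighter probe set of the gene lay at 0.02 ± 0.10, -0.00 ± 0.10 and 0.04 ± 0.10, with overlap in each tissue. The second probe set was picked out after its values were seen.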
